A study of Mus musculus with 9 samples.

Results

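Igf1 encodes insulin-like growth factor 1, a hormone that the liver releases into the blood. Here it is 1 of 2707 named genes tested in the livers of mice fed a high fat diet, with or without metformin, and of control mice. It was read through 1 probe of the 97836 on the array, built from the RIKEN clone C730016P09, which the RefSeq gene table lists as another name of Igf1. No other probe carried the gene's name or accession. The array also held 39027 catalogue probes, 28773 NONCODE probes and 942 Ensembl probes that come with an identifier alone, so a probe of the main Igf1 mRNA among them would not be recognised. A clone probe may read another transcript of the locus than the main mRNA, and the sources used here do not say which strand it reads.

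Liver was taken at 20 weeks of age from 36 male mice of the inbred strain C57BL/6J, as 3 groups of 3 pools with 4 mice to a pool. The metformin group spent 17 weeks on a diet that drew 45% of its energy from fat, and for the last 5 of them was gavaged with the glucose-lowering drug metformin (3 mg/kg daily). The high fat diet group had the same diet for as long and was gavaged with saline over the same 5 weeks. The control group ate chow for 17 weeks, and no gavage is recorded for it. A pool averages its mice, so the spread between pools is narrower than that between single mice would be. Whole liver was measured, where a change in the number of cells of a type cannot be told apart from a change in RNA per cell.

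As background, growth hormone acts on hepatocytes through its receptor, the kinase JAK2 and the factor STAT5B to switch on Igf1, and liver supplies most of the hormone in the blood. There it travels with binding proteins and the acid-labile subunit, and it acts through the IGF1 receptor on growth and on the response to insulin. In mice the gene has more than one start site and its transcripts differ at both ends, which is why a probe of one clone does not stand for the gene as a whole.

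The window around the Igf1 start site in the RefSeq promoter table is shown because it fixes which locus is meant: chromosome 10, plus strand, chr10:87860861-87861160 of GRCm38.p6. It runs from 250 bases before the start site to 50 after it, and capitals mark the transcribed bases from the start site on.
Igf1: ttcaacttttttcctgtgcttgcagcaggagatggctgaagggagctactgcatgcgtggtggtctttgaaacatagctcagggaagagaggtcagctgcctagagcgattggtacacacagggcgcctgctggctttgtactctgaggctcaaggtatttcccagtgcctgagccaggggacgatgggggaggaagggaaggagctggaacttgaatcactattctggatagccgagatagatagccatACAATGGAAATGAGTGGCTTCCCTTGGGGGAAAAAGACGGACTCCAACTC
Bases G and C made up 52.3% of it, against a mean of 53.8% over 32851 such windows. The TATA motif TATAAA and the STAT motif TTCNNNGAA, each searched on both strands, had no match in it, where 13.6% and 8.3% of all windows held one. That describes these letters in this window and nothing about the factors. The noncoding gene Igf1os overlaps Igf1 in the same table and had no named probe, so with the strand unknown, signal from Igf1os cannot be told apart from that of Igf1.

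The Igf1 probe gave a clear signal in every pool. Its single spot per array reached 1549, 1310 and 642 intensity units in metformin replicates 1, 2 and 3, then 1989, 1794 and 1540 in the high fat diet replicates and 2013, 1834 and 2318 in the controls. The spot was 34.8 to 105.2 times its local background, was never saturated and carried no outlier mark. Metformin replicate 3 was the dimmest of the 9 before any scaling.

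All further levels are log2 values from which the 75th percentile of the same array was subtracted, which removes differences in overall brightness. On this scale Igf1 was at 2.85, 2.68 and 1.86 in metformin replicates 1, 2 and 3. It was at 3.20, 2.98 and 2.58 in the high fat diet replicates and at 3.06, 2.96 and 3.27 in the controls. The means were 2.46 ± 0.53 in the metformin pools, 2.92 ± 0.31 in the high fat diet pools and 3.09 ± 0.16 in the controls (SD, n = 3 each). The metformin pools all lay below the controls, whereas the high fat diet pools overlapped both other groups. By mean, metformin was lowest, high fat diet next and control highest, and neither pair of neighbours in that order differed beyond the spread. Among the 3 groups together the difference was not called when p was adjusted over the 62036 tested probes (limma F test, adjusted p = 0.409); 0.124% of probes were.

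**Figure D1:**
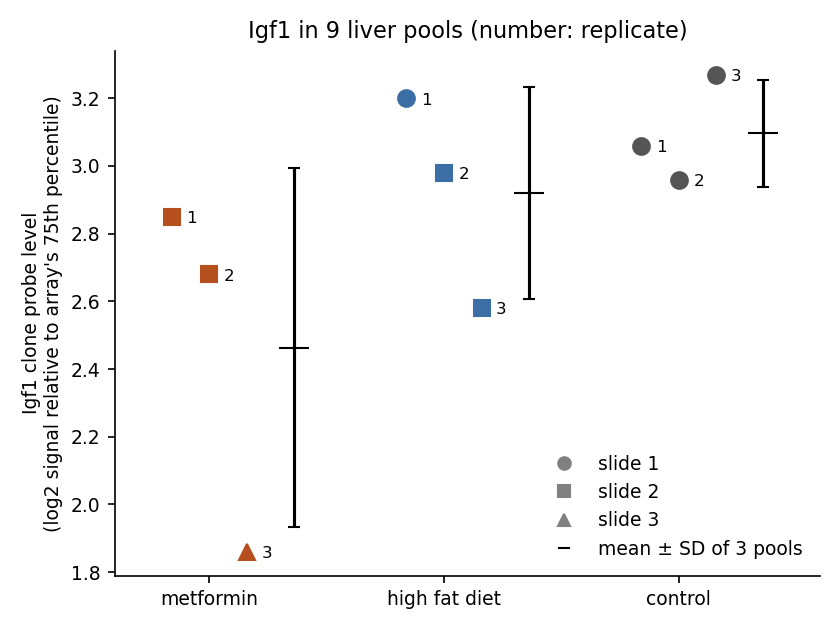
Igf1 level of each pool (y axis, log2 scale, each array's 75th percentile set to 0) by group, with numbers for the replicate and symbols for the slide; black bars are the mean and SD of 3 pools. The metformin pools sit at 1.86 to 2.85, below the controls at 2.96 to 3.27, and metformin replicate 3, alone on slide 3, is the lowest.

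Metformin against saline on the high fat diet asks about the drug with the diet held fixed. Igf1 averaged 2.46 in metformin pools and 2.92 in high fat diet pools, a log2 difference of -0.45 (SE 0.26, limma adjusted p = 0.814). The 95% interval of the difference ran from -1.04 to 0.13, that is from 0.487 to 1.1 times the high fat diet level. Metformin replicates 1 and 2 both lay above high fat diet replicate 3, so the groups overlapped. An exact two-sided permutation test gave p = 0.3, and 3 pools against 3 cannot go below 0.1. In this comparison 0.00645% of all probes passed, and 5.24% had a difference as low as that of Igf1 or lower.

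Metformin pools against controls differ in diet, gavage and drug together. Here Igf1 averaged 2.46 in metformin pools and 3.09 in controls, a log2 difference of -0.63 (SE 0.26, limma adjusted p = 0.234). The difference, 0.647 times the control level, had a 95% interval of 0.431 to 0.971 times. It was not called over all probes, although its unadjusted limma p was 0.0381, and the exact permutation p was 0.1, the smallest that 3 pools against 3 allow. The lack of overlap says little by itself, since the groups did not overlap for 24.9% of all probes, and 12.5% were lower without overlap. At the adjusted threshold 0.546% of all probes passed, and 19.1% had an unadjusted limma p under 0.05.

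High fat diet against control asks about the diet together with its saline gavage. Igf1 averaged 2.92 in high fat diet pools and 3.09 in controls, a log2 difference of -0.18 (SE 0.26, limma adjusted p = 0.874), with overlapping groups. The 95% interval ran from 0.59 to 1.33 times the control level. High fat diet replicate 1, at 3.20, lay above 2 of the 3 controls. The exact permutation p was 0.5, and 0.0451% of all probes passed in this comparison.

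With the 6 high fat pools, metformin or saline, taken against the 3 controls, Igf1 averaged 2.69 in the high fat pools and 3.09 in the controls. The log2 difference was -0.40 (SE 0.23, limma adjusted p = 0.389), or 0.757 times the control level with a 95% interval of 0.532 to 1.08. The exact permutation p was 0.143 over 84 splits, where 0.0119 was the smallest possible. In this comparison 0.746% of all probes passed. These comparisons share pools and are not independent of each other.

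The Igf1 level also differed between the slides that carried the arrays. Slide 1 (the controls and 1 high fat diet pool, replicate 1) had levels of 2.96 to 3.27. Slide 2, which held high fat diet replicates 2 and 3 and metformin replicates 1 and 2, had levels of 2.58 to 2.98, and metformin replicate 3, alone on slide 3, was at 1.86. Within slide 2 the metformin pools averaged 2.77 and the high fat diet pools 2.78, a difference of -0.01. Within slide 1 the 1 high fat diet pool was 0.10 above the mean of the controls. With a term for slide in the fit the log2 differences were -0.01 for metformin against high fat diet, 0.09 for metformin against control and 0.10 for high fat diet against control (limma adjusted p = 1 for each). Metformin replicate 3, the only array on slide 3, is taken up by its own slide term and adds nothing to these differences. The fit thus repeats the differences within slides 1 and 2 and is no separate reading of them. Metformin and control pools shared no slide, so their difference within a slide cannot be read, and that fit reaches it only through the high fat diet pools.

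**Figure D2:**
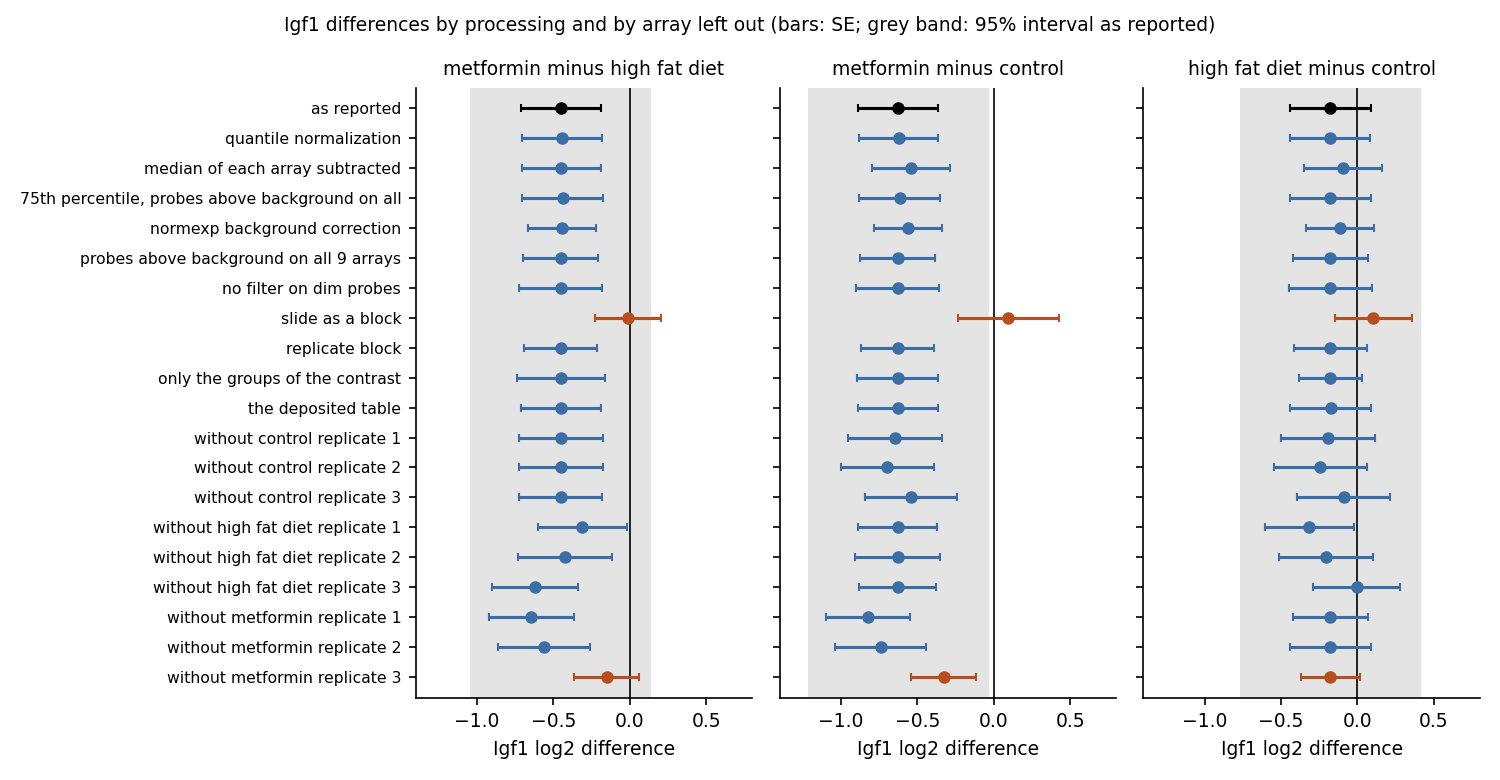
Igf1 log2 difference in 3 comparisons (x axis) under each way of processing and with each array left out (one line each), with bars for the SE and a grey band for the 95% interval as reported. Among the settings plotted, the fit with slide as a block turns a sign (0.09 between metformin and control, 0.10 between high fat diet and control), and without metformin replicate 3 the metformin differences shrink to -0.15 and -0.33.

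Metformin replicate 3 set much of the size of both metformin differences. Without it the log2 difference was -0.15 against high fat diet (SE 0.21, limma adjusted p = 0.999) and -0.33 against control (SE 0.21, adjusted p = 0.536). The other metformin pools, at 2.68 and 2.85, still lay below the lowest control at 2.96. In that pool Igf1 was 0.90 lower on the log2 scale than the mean of the other metformin pools, or 0.534 times it. Leaving out high fat diet replicate 3 moved the diet difference to -0.01, and leaving out high fat diet replicate 1 moved it to -0.32.

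The array of metformin replicate 3 had the lowest 75th percentile of signal (191, against 220 to 279 on the others). The deviations of its probes from the other metformin pools had an SD of 0.34 on the log2 scale, against 0.35 to 0.54 for the other 8 arrays within their groups. Of 10986 tested probes with a mean level of at least 2, 13 were as far below the other pools of the group as Igf1, or 0.118%. On the other 8 arrays the same count ran from 5 to 289. Igf1 and the noncoding Gm35393 were the named genes among the 13. The 54 spots above background within 5 rows and columns of the Igf1 spot had a median deviation of -0.10 and a lowest of -0.58, so none was as low as Igf1.

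**Figure D3:**
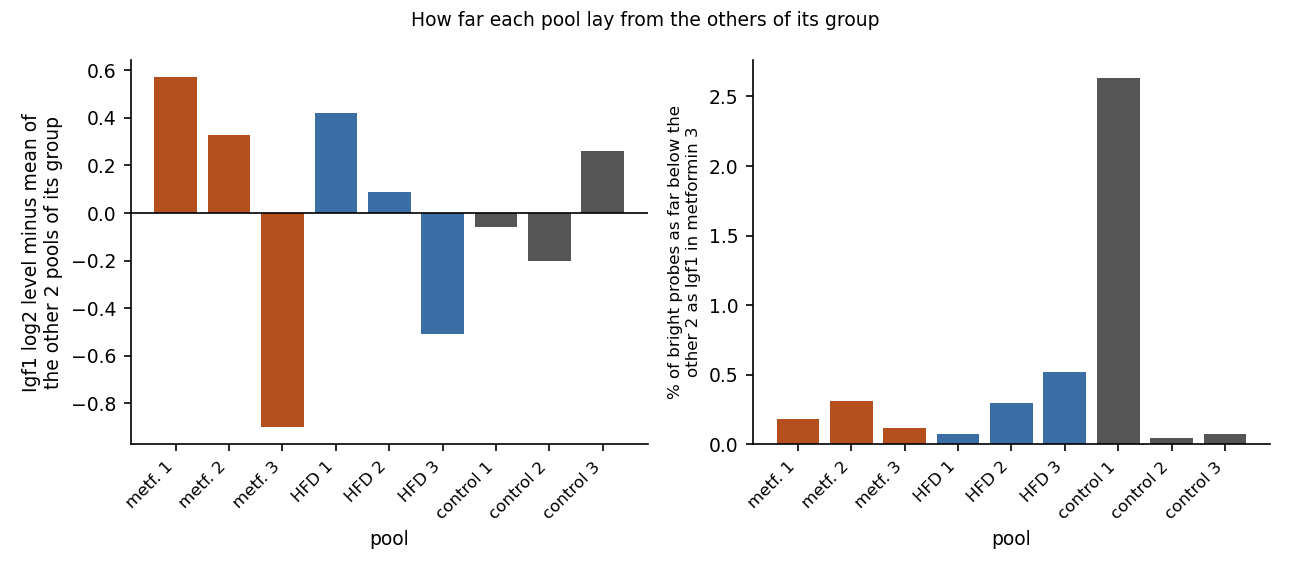
Left, Igf1 log2 level of each pool minus the mean of the other 2 pools of its group; right, the percentage of probes with a mean level of at least 2 that lay 0.90 or more below the other 2 pools. Igf1 is 0.90 lower in metformin replicate 3, where 0.118% of those probes were as low; control replicate 1 has the highest percentage, 2.63%.

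Of the 22 genes within 500 kb of Igf1, 2 had a named probe. Gm30073, a predicted noncoding RNA within 50 kb of Igf1os, was at -1.18, -1.54 and -1.43 in metformin replicates 1 to 3. It was at -1.49, -1.26 and -1.47 in the high fat diet replicates and at -1.14, -1.18 and -1.36 in the controls. Its groups overlapped in each comparison, its log2 difference between metformin and control was -0.16 (SE 0.15, limma adjusted p = 0.606), and metformin replicate 3 was not its lowest pool. Gm30233 was not above background on any array.

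Of 100 genes listed for the growth hormone and IGF axis, 9 had a named probe and 7 were tested, Igf1 among them. None of the 6 receptors, among them Ghr and Igf1r, and none of the 15 binding proteins and related genes had one, so the partners of the hormone were not measured under a name. The named probe of the complement gene C8b, a RIKEN clone probe, was above background on 1 array. That of the oestrogen receptor gene Esr1, a RefSeq probe, was above background on 0 arrays. Neither probe was tested, and each may miss other transcripts of its gene, so this does not show that the genes were silent. Between high fat diet and control, limma called 0 of the 7 genes, whose differences were above 0 in 2 and below 0 in 5. The median log2 difference was -0.176, the value of Igf1 itself, beside -0.01 over all probes. For the 6 genes other than Igf1 it was -0.271. An unadjusted limma p under 0.05 was found for 3 of 7, among them Meg3 and Rian, which lie at no IGF gene. Of all probes 12.1% had one, and of the named genes tested 15.8%. For metformin against high fat diet limma called 0, with 5 above 0 and 2 below, and the median was 0.247, beside 0.007 over all probes. That median is the value of Rian, which was above background in 1 metformin pool and 0 high fat diet pools, so it is uncertain. For the 6 genes other than Igf1 the median was 0.334. There 2 of 7 had an unadjusted limma p under 0.05, against 6.64% of all probes and 6.69% of the named genes tested. For metformin against control limma called 0, with 2 above 0 and 5 below, and the median was -0.296, beside -0.005 over all probes. For the 6 genes other than Igf1 that median was -0.162. There 4 of 7, Igf1 among them, had an unadjusted limma p under 0.05, against 19.1% of all probes and 22.2% of the named genes tested.

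Sh2b1, an adaptor that binds JAK2, belongs to growth hormone signalling. Read by a RIKEN clone probe, with the same limit as Igf1, Sh2b1 does not stand for that signalling. It was at 3.75, 3.77 and 3.55 in metformin replicates 1 to 3, at 4.0, 3.73 and 3.26 in the high fat diet replicates and at 3.60, 3.61 and 3.95 in the controls. The groups overlapped throughout, with log2 differences of 0.02 between metformin and high fat diet (SE 0.20, limma adjusted p = 0.992) and -0.03 between metformin and control (adjusted p = 0.957).

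The noncoding members belong to imprinted loci. Igf2os, an antisense transcript of the fetal growth factor gene Igf2, was at -2.59, -2.20 and -2.41 in metformin replicates 1 to 3 and at -3.18, -2.93 and -2.81 in the high fat diet replicates. Those groups did not overlap, as for 16.2% of all probes, and the log2 difference of 0.57 did not pass (SE 0.22, limma adjusted p = 0.697). The controls, at -2.93, -2.42 and -2.10, overlapped both. Igf2os was not above background in high fat diet replicate 2, so its level in that pool is uncertain. Airn, which in mice silences the paternal copy of the IGF2 receptor gene, was read by a pair of probes. Between high fat diet and control both gave a log2 difference of 0.39 (limma adjusted p = 0.526 for the brighter and 0.399 for the other). Between metformin and high fat diet they disagreed, with -0.69 for the brighter (SE 0.22, adjusted p = 0.626) and -0.06 for the other (adjusted p = 0.971).

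Meg3 and Rian were on the same list, but they lie in another imprinted cluster, at no IGF gene. Rian was at -2.43, -3.65 and -3.72 in metformin replicates 1 to 3, at -3.57, -3.46 and -3.51 in the high fat diet replicates and at -0.75, -2.12 and -0.90 in the controls. It was above background in 1 metformin pool, 0 high fat diet pools and 3 controls. It fell in the 6 high fat pools against the controls, by 2.13 on the log2 scale (SE 0.35, limma adjusted p = 0.0377), where 0.464% of all probes were called lower. Since 5 of those 6 pools were not above background there, the size is uncertain, and 0 of the axis probes passed once slide was in the fit. These values come from a RefSeq probe, while a clone probe of Rian was above background on 0 arrays and was not tested. Rian also lost its call when any 1 control, high fat diet replicate 2 or 3, or metformin replicate 2 or 3 was left out. Meg3 differed by -1.29 in the same comparison (SE 0.25, adjusted p = 0.0537) and did not pass, although it passed when probes had to be above background on all 9 arrays, a filter that removes Rian.

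**Figure D4:**
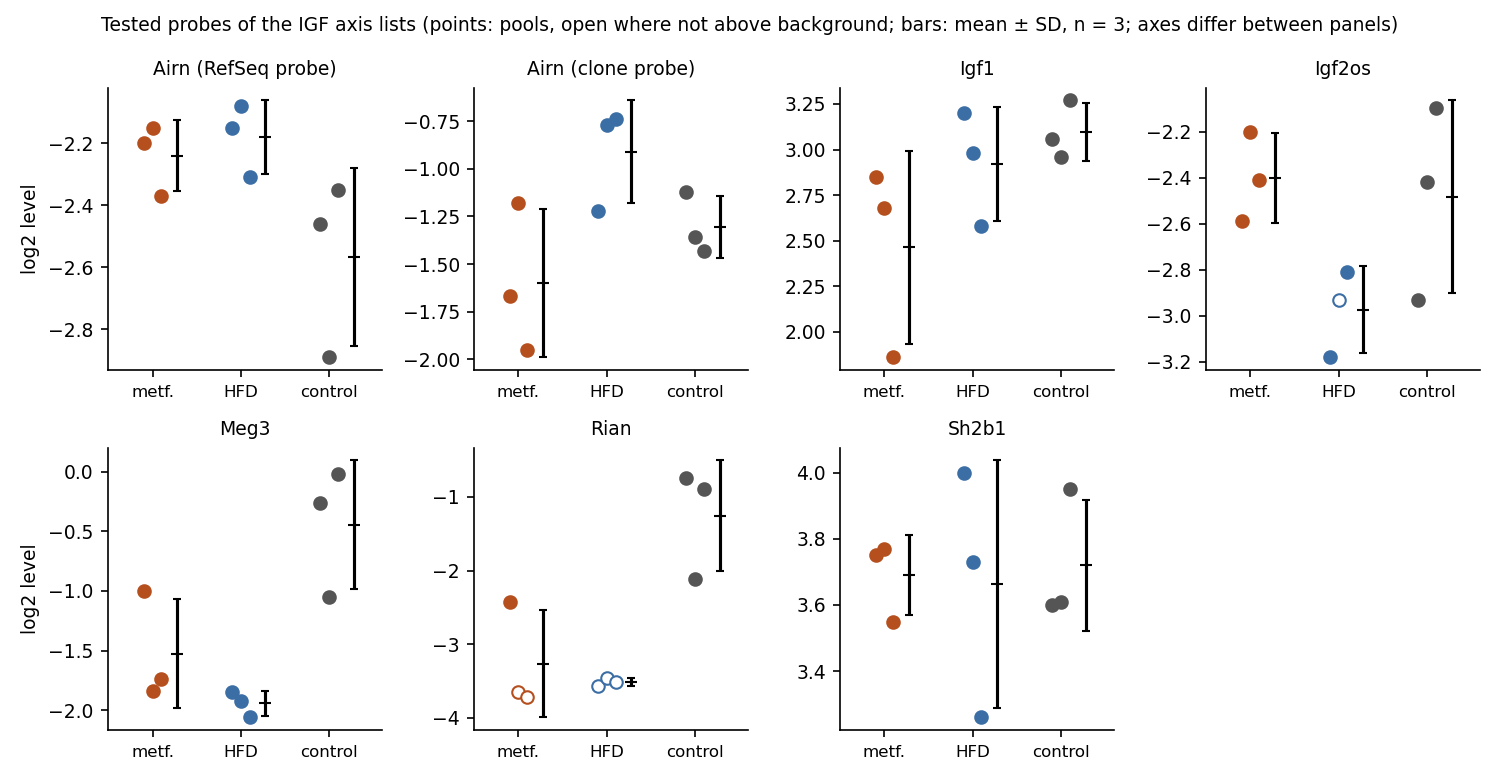
Log2 level of 7 tested probes of the axis lists in each pool, by group, with open points where the probe was not above background and bars for the mean and SD of 3 pools; scales differ between panels. Metformin replicate 3, the right-hand metformin point, is the lowest metformin pool for Igf1, both Airn probes and Sh2b1, but not for Igf2os or Meg3. For Rian, metformin replicates 2 and 3 were not above background, so their order is not read. Rian is below background in 5 of the 6 high fat pools.

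Named noncoding transcripts that overlap an axis gene or lie within 50 kb of one numbered 40, of which 23 were tested. Limma called 0 of them in each comparison. For metformin against control the differences were above 0 in 10 and below 0 in 13, with a median of -0.052 on the log2 scale. Of the 23, 7 had an unadjusted limma p under 0.05 (30.4%, beside 19.1% of all probes and 22.2% of the named genes tested). For metformin against high fat diet 0 had one (beside 6.64% of all probes and 6.69% of named genes), with 11 above 0, 12 below and a median of -0.011. For high fat diet against control 5 did (21.7%, beside 12.1% of all probes and 15.8% of named genes), with 9 above 0, 14 below and a median of -0.047.

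The transcripts named next are the 3 with the smallest p in each comparison. Gm31852, near Cebpb, was at 2.38, 2.63 and 1.91 in metformin replicates 1 to 3, at 3.56, 3.56 and 2.13 in the high fat diet replicates and at 3.94, 4.03 and 3.90 in the controls. It gave -1.64 between metformin and control (SE 0.36, limma adjusted p = 0.0665) and -0.77 between metformin and high fat diet (SE 0.36, adjusted p = 0.761). Gm20016, near the pioneer factor gene Foxa1, gave 0.87 between metformin and control (SE 0.22, adjusted p = 0.0932) and 0.76 between high fat diet and control (SE 0.22, adjusted p = 0.228). Gm38678, which overlaps Onecut1, gave 0.96 between high fat diet and control (SE 0.26, adjusted p = 0.203). Gm36565, beside the binding protein genes Igfbp1 and Igfbp3, was above background in 0 metformin pools, 1 high fat diet pool and 2 controls. It gave -1.36 between high fat diet and control (SE 0.37, adjusted p = 0.204) and -1.28 between metformin and control (SE 0.37, adjusted p = 0.119). With pools of every group not above background, the sizes of both differences are uncertain. Between metformin and high fat diet, Gm35611 near Cebpa gave 0.29 (SE 0.15, adjusted p = 0.793) and Gm31527, which overlaps Bcl6, gave -0.33 (SE 0.19, adjusted p = 0.816). None of these transcripts was called over all probes. Gm41549, which overlaps the acid-labile subunit gene Igfals, gave 0.08 between metformin and control (SE 0.17, adjusted p = 0.847).

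The named genes whose profile over the 9 pools was most like that of Igf1 were Gm40221 (Pearson r = 0.944, Spearman rho = 0.867), Poglut2 (r = 0.943, rho = 0.933), Gm33497 (r = 0.934, rho = 0.867) and Gm15736 (r = 0.915, rho = 0.817). Gm15736 was above background on 8 of 9 arrays, with 2 of the 3 metformin pools among them. The next gene, C030018K13Rik (r = 0.885), was above background on 3 of 9 arrays, so its low levels have no order and its r is not read further. These 5 were taken as the highest of 2706, whose median r was 0.079, so the values describe the choice and carry no p. The most opposite were Gm41401 (r = -0.961), Gm33624 (r = -0.96) and 1700001O22Rik (r = -0.936). With group means removed, r was 0.854 to 0.965 for the first 4 and -0.963 to -0.887 for the other 3.

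The likeness rested in part on the extreme pools. Without metformin replicate 3 and high fat diet replicate 3, the pools farthest from the median of Igf1, r was 0.585 for Gm15736 and 0.853 to 0.913 for Gm40221, Poglut2 and Gm33497, and it was -0.764 for Gm41401, -0.842 for Gm33624 and -0.952 for 1700001O22Rik. Without metformin replicate 3 alone, r was 0.79 for Gm40221 and 0.73 for Gm15736. Of the 5 genes, 2 were also among the highest 5 without metformin replicate 3. Poglut2, an enzyme that adds glucose to EGF-like protein repeats, was also read by a clone probe. It was at -1.37, -1.52 and -2.01 in metformin replicates 1 to 3. It was at -1.16, -1.41 and -1.62 in the high fat diet replicates and at -0.98, -1.24 and -0.93 in the controls. By slide that was -1.24 to -0.93 on slide 1, -1.62 to -1.37 on slide 2 and -2.01 on slide 3. Between metformin and control its log2 difference was -0.58 (SE 0.20, limma adjusted p = 0.167). On slides 1, 2 and 3 in turn, Gm40221 was at -0.67 to -0.47, -0.81 to -0.72 and -1.3. Gm33497 was at 0.24 to 0.36, -0.24 to 0.18 and -0.5, and Gm33624 at 2.61 to 2.63, 2.76 to 2.93 and 3.28. Gm15736, Gm41401 and 1700001O22Rik overlapped between slides 1 and 2, as Igf1 did. Removing group means does not remove slide, and the part of slide in these likenesses was not tested.

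**Figure D5:**
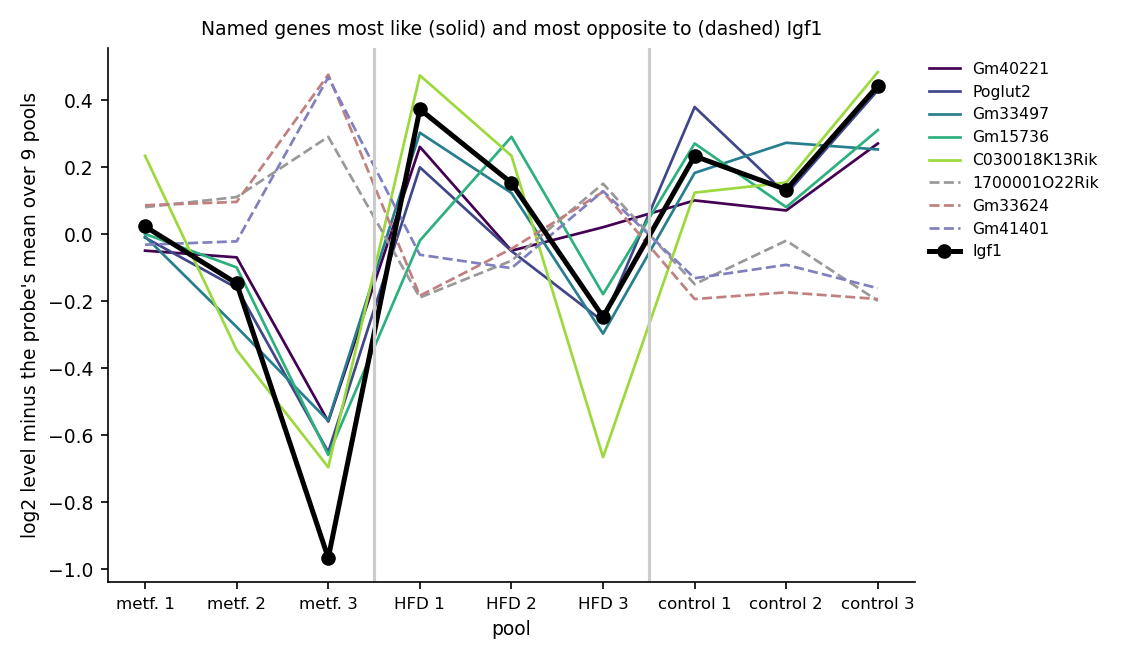
Log2 level minus the probe's mean over the 9 pools (y axis) for Igf1 (black), the 5 named genes most like it (solid) and the 3 most opposite (dashed), by pool; lines join the values of 1 probe and imply no order of replicates. Igf1, Gm40221, Poglut2, Gm33497 and Gm15736 are lowest in metformin replicate 3 (C030018K13Rik, mostly below background, has no order), and the 3 opposite ones are highest there. Gm15736 was above background in 2 of the 3 metformin pools.

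The labelled tissue could not be checked against hepatocyte genes, since 0 of 14 listed hepatocyte markers had a named probe. Of 77 markers of 10 liver and other cell types, Rgs5, a gene of stellate cells and pericytes read by a clone probe, was the 1 with a probe. It averaged 1.38 ± 0.24 in the metformin pools, 1.51 ± 0.40 in the high fat diet pools and 1.15 ± 0.36 in the controls (SD, n = 3 each), with a log2 difference of 0.24 between metformin and control (SE 0.25, limma adjusted p = 0.638). The part of cell composition in the Igf1 values was not tested.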

How the data were processed

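Liver RNA of 9 pools was measured on single-colour Agilent arrays. Per the file headers, Agilent Feature Extraction 11.5.1.1 was the authors' software for reading the spots; the submitters' processing notes name 10.7. Its processed signal, as deposited, is a linear intensity from which background and a spatial trend were removed array by array, and the headers name the build mm9. The deposited table of the series holds log2 values, which matched the log2 of that signal after subtracting 1 number per array, within 0.01 for nearly all probes; its column medians were -2.39 to -2.16.

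Spots with outlier marks were removed (73 to 192 of 175906 per array). Log2 signals were averaged per probe and centred on the 75th percentile of their array. Probes above background on at least 3 of 9 arrays were tested (62091, less 55 with a missing value) with limma 3.58.1 in R 4.3.3, 1 mean per group over all 9 arrays, with Benjamini-Hochberg adjustment over 62036 probes at 0.05. The fit had 6 residual and 3.75 prior degrees of freedom, and was tested on simulated data. Exact permutation tests used SciPy 1.17.1. Names came from RefSeq accessions (4658 probes) and RIKEN clone names (1209 probes) in the RefSeq table, and the brightest probe stood for a gene. Named were Igf1, its neighbours, the tested axis genes (1 is not reported here), the 3 transcripts beside them with the smallest p in each comparison, and the 5 genes most like and 3 most unlike Igf1. Gm41549 and Gm35393 were named after their values were seen. Members and lists were chosen with earlier results of these data known. The planned normexp correction used the median spot signal in place of the mean.

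Replicate pools were separate samples per the labels. The labels' replicate numbers did not pair them, since the correlations of same-numbered deviations ran from -0.094 to 0.128. Arrays give no counts, and their number limits the precision. Alternatives were other scalings, background correction, filters, blocks for slide and replicate number, fits of 2 groups, the deposited table and leaving out each array.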

Additional observations from a re-analysis of the deposited data

How the results depend on the processing

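Igf1 did not pass the adjusted threshold under any alternative run, in any comparison. Its difference between metformin and control was negative under 18 of 19 alternatives, with an unadjusted limma p under 0.05 in 14. Between metformin and high fat diet it was negative in 20 of 20, and between high fat diet and control in 18 of 20. With slide as a block the difference was 0.09 between metformin and control, 0.10 between high fat diet and control and 0.10 for all high fat pools against control, each with the sign turned, and within slide 1 alone the diet difference was 0.10; within slide 2 alone metformin differed from high fat diet by -0.01. The cause was not tested. Leaving out 1 array gave -0.82 to -0.33 for metformin against control, -0.64 to -0.15 for metformin against high fat diet, -0.32 to -0.01 for high fat diet against control and -0.50 to -0.25 for all high fat pools against control, and the F test's adjusted p was 0.345 to 0.751.

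Counts of called probes moved far more. For metformin against control (339 as reported) limma called 594 with normexp correction, 638 with probes above background on all 9 arrays, 96 with no filter, 602 with only those groups in the fit and 0 with slide as a block (2644 at an unadjusted p under 0.05). For high fat diet against control (28) it called 64 with normexp, 12 with no filter and 2 with slide as a block. For metformin against high fat diet (4) it called 2 with the median subtracted, 7 with normexp, 2 with no filter, 0 with only those groups (5884 at an unadjusted p under 0.05) and 0 with slide as a block (2621). For all high fat pools against control (463) it called 217 with no filter and 2 with slide as a block. Leaving out 1 array gave 2 (without metformin replicate 3) to 2711 (without control replicate 1) for metformin against control, and each of the 9 arrays moved that count by over 1.5 times. It gave 0 (without high fat diet replicate 2 or 3, with 5721 and 6241 at an unadjusted p under 0.05) to 296 (without high fat diet replicate 1) for high fat diet against control. It gave 0 to 4 for metformin against high fat diet, with 0 in 6 of 9 cases (2841 to 4004 at an unadjusted p under 0.05), and 7 (without control replicate 2) to 1249 (without high fat diet replicate 1) for all high fat pools against control. Axis probes called over the first 3 comparisons numbered 1 with normexp (Rian) and 0 otherwise; for all high fat pools against control there were 2 with normexp (Meg3 and Rian), 0 with no filter, 0 with slide as a block and 0 to 2 with 1 array left out, against 1 (Rian) as reported; with probes above background on all 9 arrays the 1 was Meg3, since that filter removes Rian.

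With the replicate block, which the data do not bear out as a pairing, limma called 79 probes between metformin and control, 0 between high fat diet and control (7932 at an unadjusted p under 0.05), 0 between metformin and high fat diet (4223) and 223 for all high fat pools; Igf1 kept its differences there (-0.63, -0.18 and -0.45).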
